A study of Oryctolagus cuniculus with 9 samples.

Results

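The 6 genes described here encode parts of inflammatory signalling in the joint: the cytokine gene IL21, the cytokine subunit gene IL23A, the receptor genes OSMR and TNFRSF1A, the prostaglandin synthase gene PTGES and the transcription factor gene NFKB1. They were taken by gene symbol from the 14870 genes of the deposited tables, and each symbol belonged to 1 row, in both tables. RNA sequencing of rabbit knee tissue was analysed in 3 groups of 3 libraries. Healthy samples were cartilage of New Zealand white rabbits outside the defects, and the scheme of the study places them on the condyle. Untreated samples came from a full-thickness defect drilled into the trochlear groove of the left knee and left empty. CLCS samples came from the same kind of defect in the right knee, filled with a collagen-chondroitin sulphate scaffold (CLCS) of 5 mm diameter and 1 mm height. The rabbits were selected at 4 to 5 months of age and the tissue was taken 12 weeks after surgery, so every difference from healthy cartilage reported here is also a difference between sites of the knee. The labels do not say whether the 3 libraries of a group came from separate animals, and the p-values then measure only the spread between these samples.

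As background, cytokines act on cartilage through surface receptors. Oncostatin M binds OSMR paired with the shared gp130 chain, and tumour necrosis factor binds TNFRSF1A, whose signal reaches the NF-kB dimers to which NFKB1 contributes a subunit. NF-kB target genes in chondrocytes include matrix proteases and the prostaglandin enzymes, of which PTGES makes prostaglandin E2, a mediator of joint pain. IL21 and IL23 are best known as cytokines of lymphocytes and myeloid cells rather than of chondrocytes.

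All values are normalised reads, the deposited values in which the gene count of a library is divided by its size factor, and 1 read is worth close to 1 unit. The libraries held between 724986 and 1226408 reads on genes, so the 6 genes rest on few reads: between 61 for PTGES and 422 for TNFRSF1A over all 9 libraries. A gene without a symbol, ENSOCUG00000023467, took 1.49% to 49.4% of the reads in each library. Chondrocyte markers were read in every library, led by COL2A1 with 505 to 20508 reads, and untreated replicate 3 had the lowest summed chondrocyte level of the 9 libraries (760 normalised reads, against 5080 and above in the others).

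IL21, the cytokine that activated helper T cells make, was read mainly in healthy cartilage, which held 84 of its 96 reads. Healthy replicates 1, 2 and 3 had 44.3, 10.1 and 24.4 normalised reads. The untreated replicates had 3.15, 0 and 0.907, and the CLCS replicates 4.13, 0.984 and 2.49. All 6 defect libraries lay below all 3 healthy ones, while the untreated and CLCS libraries overlapped. The 0 of untreated replicate 2 allows a level of up to 3.75 CPM (reads scaled to a common library total), a limit of 3 reads that covers counting error only.

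The group means of IL21 were 26.3 ± 17.1 in healthy samples, 1.35 ± 1.62 in untreated and 2.54 ± 1.58 in CLCS ones (SD, n = 3). Pooled reads were 18.0-fold higher in healthy than in untreated samples (exact 95% interval 7.40 to 56.8) and 10.6-fold higher than in CLCS samples (4.93 to 27.2), where the intervals cover counting error only. IL21 missed the read filter, which asks for 3 libraries at about 10 reads, because healthy replicate 2 stood at 10.6 CPM against the 11.7 asked for in the untreated and 10.7 in the CLCS comparison. Without the filter, limma gave a log2 fold change of -3.55 (adjusted p = 0.0641, SE 0.65) in untreated samples and -2.83 (adjusted p = 0.111, SE 0.59) in CLCS samples, each against healthy ones, neither past the threshold of 0.05. The exact two-sided permutation p was 0.1 in both, the smallest that 3 against 3 libraries allow. The count tests without the filter called it in both comparisons, with an adjusted p of 1.67e-06 in edgeR and 0.00153 in DESeq2 for untreated samples, and of 4.53e-05 and 0.00494 for CLCS samples.

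IL23A, whose product pairs with that of IL12B to form IL23, differed in the other direction. Its healthy replicates had 2.83, 20.3 and 11.7 normalised reads. The untreated replicates had 27.6, 59.0 and 33.5, and the CLCS replicates 19.6, 34.4 and 8.72. All untreated libraries lay above all healthy ones, and the CLCS libraries overlapped both other groups. The order of the means was untreated (40.0 ± 16.7), CLCS (20.9 ± 12.9) and healthy (11.6 ± 8.74; SD, n = 3), and no neighbours in it differed past the threshold in limma. The log2 fold change was 1.94 (adjusted p = 0.175, SE 0.65) in untreated samples and 0.92 (adjusted p = 0.559, SE 0.71) in CLCS samples, each against healthy ones. Without healthy replicate 1, which had the lowest level, these were 1.24 and 0.22, and the CLCS value was 0.48 without CLCS replicate 2, 1.46 without healthy replicate 2 and 1.42 without CLCS replicate 3. Of the count tests without the filter, edgeR called the gene in untreated samples (adjusted p = 0.0114) and DESeq2 did not (adjusted p = 0.0953).

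OSMR, the receptor chain specific for oncostatin M, was lower in both kinds of defect than in healthy cartilage by 3.03-fold and 3.30-fold in the means, without a call. The healthy replicates had 11.3, 14.2 and 33.4 normalised reads. The untreated replicates had 6.30, 5.001 and 8.16, and the CLCS replicates 1.03, 6.89 and 9.96. Every defect library lay below every healthy one, and both defect groups overlapped. The log2 fold change was -1.33 (adjusted p = 0.174, SE 0.44) in untreated samples. In CLCS samples it was -1.73 (adjusted p = 0.247, SE 0.68), and -1.001 without CLCS replicate 1, which held 1 read.

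TNFRSF1A, the main receptor of tumour necrosis factor on most cells, had means 2.49-fold and 2.48-fold higher in untreated and CLCS samples than in healthy ones. Healthy replicates had 11.3, 38.6 and 19.0 normalised reads. The untreated replicates had 65.4, 76.0 and 29.9, and the CLCS replicates 72.3, 46.2 and 52.3. The CLCS libraries lay above all healthy libraries, whereas untreated replicate 3 fell below healthy replicate 2. The log2 fold change was 1.34 (adjusted p = 0.264, SE 0.54) in untreated samples and 1.42 (adjusted p = 0.157, SE 0.45) in CLCS samples, each against healthy ones. edgeR without the filter called it in CLCS samples (adjusted p = 0.0322), and DESeq2 without it did not (adjusted p = 0.137). The means of untreated (57.1 ± 24.1) and CLCS samples (57.0 ± 13.7; SD, n = 3) were close, with a log2 difference of 0.07 and a 95% interval from -0.87 to 1.02.

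**Figure D1:**
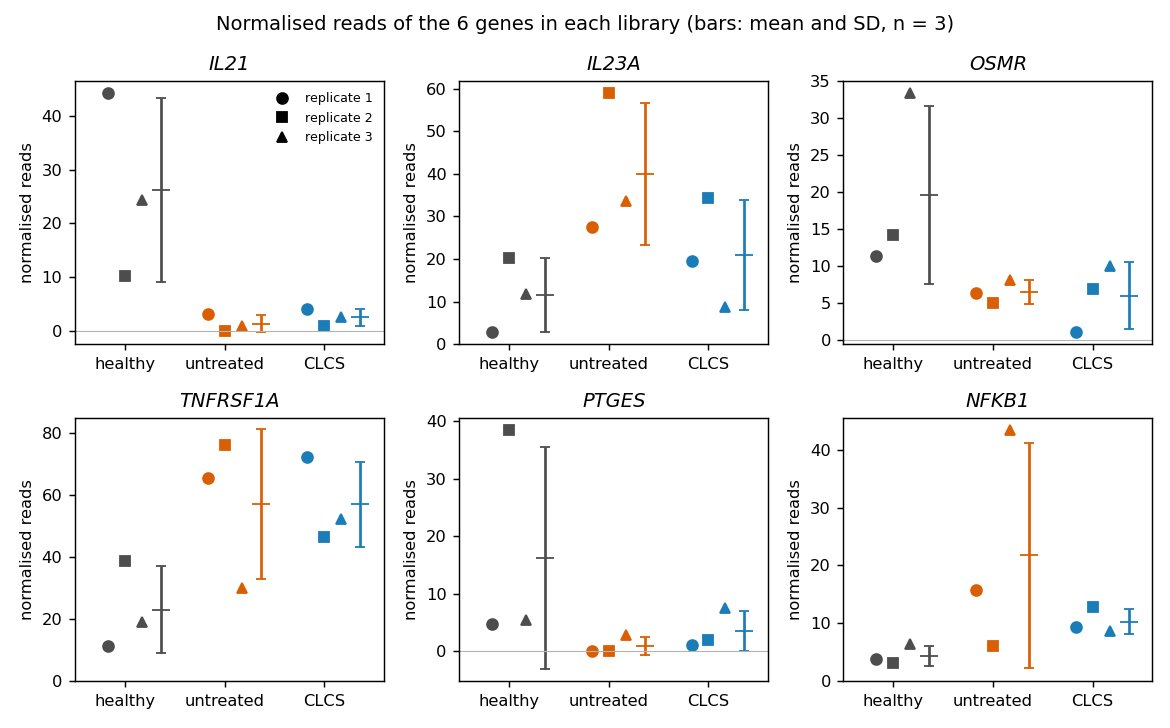
Normalised reads (vertical axes, linear and different for each gene) of the 6 genes in the 9 libraries, with replicates 1 to 3 as circles, squares and triangles, and the mean and SD of each group beside them (n = 3). IL21 is above 10 only in healthy libraries, PTGES reaches 38.6 only in healthy replicate 2 and NFKB1 reaches 43.5 only in untreated replicate 3.

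PTGES, the inducible synthase that turns prostaglandin H2 into prostaglandin E2, had most of its reads in 1 healthy library. Healthy replicates had 4.71, 38.6 and 5.42 normalised reads, so that replicate 2 held 38 of the 49 healthy reads. The untreated replicates had 0, 0 and 2.72, and the CLCS replicates 1.03, 1.97 and 7.47. The untreated libraries lay below all healthy ones, and the CLCS libraries overlapped them. The untreated replicates without a read allow up to 3.28 and 3.75 CPM.

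In pooled reads PTGES was 17.5-fold higher in healthy than in untreated samples, with an exact 95% counting interval from 5.64 to 87.6 that rests on 3 untreated reads, and 4.81-fold higher than in CLCS samples (2.34 to 11.1). It did not pass the read filter. Without it, limma gave a log2 fold change of -2.87 (adjusted p = 0.194, SE 0.80) in untreated and -1.61 (adjusted p = 0.574, SE 0.79) in CLCS samples, and leaving out healthy replicate 2 moved these to -1.97 and -0.71. The exact two-sided permutation p was 0.1 and 0.3. edgeR without the filter called the gene in both comparisons (adjusted p = 0.000237 and 0.0480) and DESeq2 in untreated samples (adjusted p = 0.0345).

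NFKB1, which encodes the precursor of an NF-kB subunit, had 3.77, 3.04 and 6.32 normalised reads in the healthy replicates. The untreated replicates had 15.8, 6.001 and 43.5, and the CLCS replicates 9.30, 12.8 and 8.72. The CLCS libraries lay above all healthy ones, and untreated replicate 2 lay within the healthy range. Untreated replicate 3 held 48 of the 74 untreated reads and was also the library with the highest summed macrophage markers. NFKB1 did not pass the read filter against healthy samples. Without the filter its log2 fold change was 1.74 (adjusted p = 0.335, SE 0.64) in untreated and 1.10 (adjusted p = 0.413, SE 0.44) in CLCS samples, and 1.06 in untreated samples without their replicate 3. The exact two-sided permutation p was 0.2 and 0.1. Of the count tests without the filter, edgeR called it in untreated samples (adjusted p = 0.0111) and DESeq2 did not (adjusted p = 0.0891).

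Set against all genes, no member was called in the limma fit with the read filter. In untreated against healthy samples 3 members were tested and 0 called, with 2.55% of the 3496 tested genes called. In CLCS against healthy samples 3 were tested and 0 called, with 3.16% of 3294 genes called. At an unadjusted p under 0.05 the members numbered 3 of 3 (16.6% of all genes) and 2 of 3 (17.5%). Of all 6 members, the libraries did not overlap for 4 in each comparison. These were 3 lower and 1 higher in untreated and 2 lower and 2 higher in CLCS samples. Of all genes with a read, 5.95% were lower and 6.61% higher in untreated and 5.79% lower and 6.99% higher in CLCS samples. Among the genes kept by the filter the shares were larger, 22% in either direction in untreated and 24.2% in CLCS samples. Without the filter, edgeR called 4 members in untreated and 3 in CLCS samples (3.48% and 2.89% of all genes), and DESeq2 called 2 and 1 (1.88% and 1.76%). Limma without the filter called 0 in either (0.14% and 0.0938% of all genes). These comparisons share the healthy libraries. The members were chosen with earlier results of these data known, so counts above the shares of all genes are not independent evidence. In the CLCS comparison OSMR passed the filter only through its healthy libraries.

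The 6 libraries from defects were also compared together with the 3 healthy ones. The left and right knees of a rabbit may both be among them, so that the p-values can be too small. Here 4 members passed the filter and 0 were called, while 6.58% of the 3812 tested genes were called. IL21, outside the filter, was called in the limma fit without it, with a log2 fold change of -3.19 (adjusted p = 0.0266, SE 0.55, 1.19% of all genes called), lower in 6 of 6 defect libraries. This call was lost on leaving out any 1 of the 9 libraries, with an adjusted p between 0.0717 and 0.178. The exact two-sided permutation p for IL21 was 0.0238, the smallest that 6 against 3 libraries allow. OSMR had a log2 fold change of -1.53 (adjusted p = 0.138, SE 0.54), IL23A of 1.43 (adjusted p = 0.200, SE 0.58), TNFRSF1A of 1.38 (adjusted p = 0.0924, SE 0.42) and NFKB1 of 1.42 (adjusted p = 0.144, SE 0.51). TNFRSF1A was called in DESeq2 (adjusted p = 0.0355, and 0.0487 without the filter), in edgeR without the filter (adjusted p = 0.00793) and in limma without healthy replicate 2 (adjusted p = 0.0467). IL23A (adjusted p = 0.0388) and OSMR (adjusted p = 0.0267) were called in edgeR without the filter alone. NFKB1 was called there too (adjusted p = 0.0390) and in limma in 1 of 9 fits that left out a library (adjusted p = 0.0420). PTGES, outside the filter, had a log2 fold change of -2.24 in limma without it (adjusted p = 0.199, SE 0.71). It was called in edgeR and DESeq2 without the filter.

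The direct comparison of CLCS with untreated samples asks whether these genes differed between filled and empty defects. The scaffold was placed in right knees and the empty defects were in left knees, so scaffold and side cannot be told apart. The libraries of both groups overlapped for all 6 members, whereas 6.39% of all genes with a read did not overlap. Limma, edgeR and DESeq2 with the filter each called 0 of 3275 genes, a share of 0%, and 95 genes (2.9%) had an unadjusted p under 0.05 in limma, none of them a member. The 95% interval of the log2 difference ran from -2.23 to 0.19 for IL23A (-1.02), from -2.10 to 0.82 for NFKB1 (-0.64) and, without the filter, from -0.58 to 2.02 for IL21 (0.72). Also without the filter, it ran from -1.75 to 0.96 for OSMR (-0.40) and from -0.22 to 2.74 for PTGES (1.26). Every one of these intervals, which take the libraries as unpaired, included 0, and each also left room for a difference of more than 1 log2 unit in at least 1 direction.

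CLCS and untreated libraries of the same number deviated together and were also compared within pairs, a pairing that the labels do not state. In all 3 pairs IL23A was lower in the CLCS library, with differences from the untreated one of -7.94, -24.6 and -24.8 normalised reads. IL21 was higher in it by 0.982, 0.984 and 1.58 and PTGES by 1.03, 1.97 and 4.75 normalised reads, differences of a few reads. OSMR, TNFRSF1A and NFKB1 had both signs. These 3 of 6 members with 1 sign stand beside 17% of all genes with a read and 27.4% of the genes kept by the filter. An exact test over 3 pairs cannot go under 0.25. With the replicate number as a block, the 95% interval of the log2 difference ran from -1.88 to -0.16 for IL23A and, without the filter, from 0.35 to 2.17 for PTGES, neither including 0, and from -0.20 to 1.65 for IL21. No member was called with the block (adjusted p = 0.884 for IL23A and 0.852 for PTGES in limma).

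**Figure D2:**
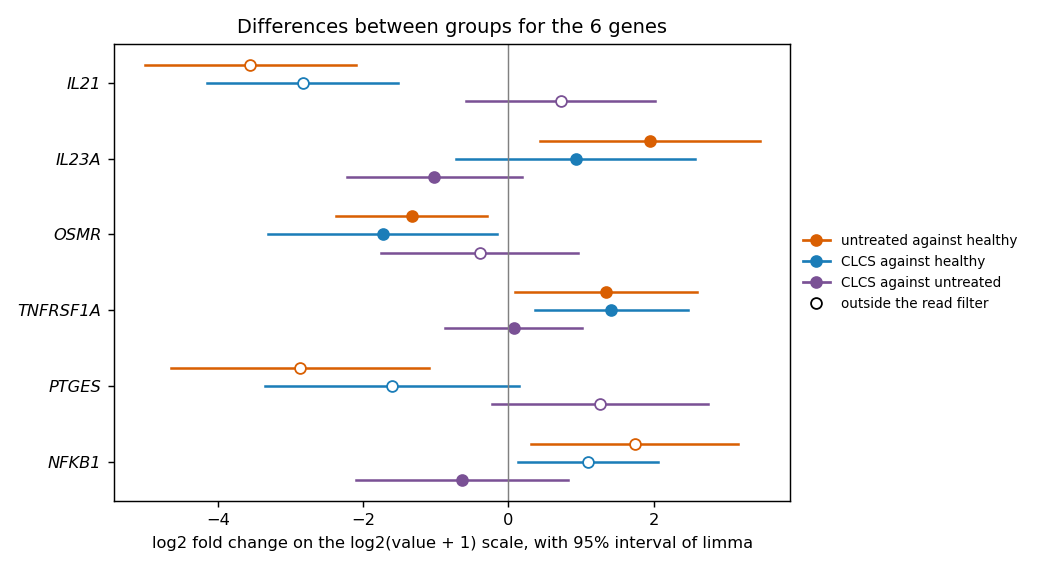
Log2 fold changes on the log2(value + 1) scale with the 95% intervals of limma for the 6 genes in 3 comparisons of 2 groups each. Filled points passed the read filter and open points come from the fit without it. IL21 and OSMR lie below 0 and TNFRSF1A and NFKB1 above 0 against healthy samples, and all 6 intervals of CLCS against untreated samples, drawn without the replicate block, include 0.

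The direct partners of the members were mostly read at a few reads per library. Of the 20 partners, 12 could be analysed, and IL21R, IL2RG, IL23R, IL12RB1, TNF, PTGES3, RELA and RELB were not analysed here. IL12B, the other subunit of IL23, had 1 read in all 9 libraries. OSM, the ligand of OSMR, had 0 to 3 reads per library, and LIFR, the receptor chain of leukaemia inhibitory factor, also 0 to 3. IL6ST, which encodes gp130, had 12, 3 and 0 reads in the healthy replicates and 0 to 5 in the defects. TNFRSF1B, the other tumour necrosis factor receptor, had 0 to 2 reads, PTGS2, the inducible cyclooxygenase, 0 to 5, and NFKB2 1 to 4. None of these genes passed the read filter in any comparison, and differences between groups in them were not detectable at this depth.

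Among the partners with more reads, TNIP1, an inhibitor of NF-kB activation by tumour necrosis factor, was lower in both kinds of defect. It had 155, 56 and 68 reads in the healthy, 23, 10 and 9 in the untreated and 9, 35 and 20 in the CLCS replicates. The log2 fold change was -2.70 (adjusted p = 0.0324, SE 0.47) in untreated samples and -1.94 (adjusted p = 0.121, SE 0.56) in CLCS samples, each against healthy ones, and all defect libraries lay below the healthy ones. The call in untreated samples was lost on leaving out any 1 of the 6 libraries. In CLCS samples DESeq2 called TNIP1 with the filter (adjusted p = 0.0175) and without it (adjusted p = 0.0187). edgeR without the filter called it there too (adjusted p = 0.000194). In all defects together limma called it (adjusted p = 0.0214). NFKBIA, the inhibitor that holds NF-kB in the cytoplasm, had 12, 10 and 6 reads in healthy, 6, 2 and 4 in untreated and 1, 3 and 4 in CLCS samples and did not pass the filter. PTGS1, the constitutive cyclooxygenase, had a log2 fold change of 1.21 (adjusted p = 0.554, SE 0.83) in untreated and 1.72 (adjusted p = 0.287, SE 0.74) in CLCS samples. Its healthy replicates had 21, 3 and 2 reads, and without replicate 1 the values were 2.09 (adjusted p = 0.188) and 2.59, the latter called (adjusted p = 0.0488). REL, an NF-kB subunit, had -0.42 (adjusted p = 0.529, SE 0.27) and -0.36 (adjusted p = 0.780, SE 0.53). PTGES2, another prostaglandin E synthase, had 2 to 21 reads per library.

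The 7 pathway lists around the members held 186 other genes, of which 131 were analysed and 23 passed the filter in each comparison of 2 groups. In untreated against healthy samples 1 rose and 1 fell, in CLCS against healthy samples 1 rose, and in CLCS against untreated samples none was called. The median log2 fold change of the tested pathway genes was 0.06 in untreated samples and -0.09 in CLCS samples, each against healthy ones, beside -0.02 and -0.08 over all tested genes. The lists of interleukin 21 and the common gamma chain cytokines (3 tested in each comparison with healthy samples), of interleukin 23, 12 and 17 (1 tested) and of oncostatin M and gp130 (3 tested) had 0 calls. JAK1, a kinase of these receptors, had the smallest unadjusted p among them, with a log2 fold change of -1.11 (adjusted p = 0.121, SE 0.32) in CLCS samples. STAT6 had -0.84 (adjusted p = 0.516, SE 0.53) and IL4R -0.69 (adjusted p = 0.682, SE 0.63) in untreated samples, and STAT4, a transcription factor of IL23 and IL12 signalling, had 0.04 (adjusted p = 0.971, SE 0.31).

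Among the genes of the tumour necrosis factor receptor list, 1 of 3 tested was called in untreated samples, which was TNIP1, and 0 of 4 in CLCS samples. LTBR, the lymphotoxin beta receptor, had a mean of 109 ± 10.9 in healthy samples, 92.8 ± 13.3 in untreated and 102 ± 1.25 in CLCS ones (SD, n = 3), with a log2 fold change of -0.23 (adjusted p = 0.773, SE 0.28) in untreated samples. The prostaglandin list had 0 calls among 5 tested genes. PTGFR, the receptor of prostaglandin F2 alpha, had 61.8 ± 7.55, 67.2 ± 13.3 and 65.3 ± 9.30 normalised reads in healthy, untreated and CLCS samples, and PTGIS, the prostacyclin synthase, had a log2 fold change of -0.38 (adjusted p = 0.745, SE 0.41) in untreated samples. Of the NF-kB subunits and regulators, 2 were tested in untreated and 1 in CLCS samples, without a call. TRAF6, an adaptor upstream of NF-kB, had a log2 fold change of 1.06 (adjusted p = 0.232, SE 0.39) in untreated samples.

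The NF-kB target genes of joint tissue held the rise found in both comparisons. MMP13, the collagenase that cleaves type II collagen, had 5, 4 and 4 reads in the healthy, 89, 71 and 128 in the untreated and 50, 28 and 32 in the CLCS replicates. No library of a defect overlapped the healthy ones, and the log2 fold change was 4.04 (adjusted p = 0.00513, SE 0.32) in untreated and 2.95 (adjusted p = 0.0104, SE 0.31) in CLCS samples. The call in CLCS samples was lost without CLCS replicate 1 (2.74, adjusted p = 0.0643). All CLCS libraries lay below all untreated ones, with a log2 difference of -1.10 (adjusted p = 0.996, SE 0.35). MMP9, a gelatinase also made by osteoclasts and neutrophils, had a log2 fold change of 2.81 (adjusted p = 0.138, SE 0.83) in untreated and 2.96 (adjusted p = 0.108, SE 0.81) in CLCS samples. HIF1A had -2.42 (adjusted p = 0.148, SE 0.73) and -2.10 (adjusted p = 0.120, SE 0.60). DESeq2 called both genes in both comparisons, with an adjusted p of 0.0134 in untreated and 0.00414 in CLCS samples for MMP9 and of 0.0117 and 0.00548 for HIF1A. With the replicate number as a block, MMP9 (adjusted p = 0.0144) and HIF1A (adjusted p = 0.0444) were called as well in CLCS samples, which made 3 pathway genes in place of 1, and in untreated samples (adjusted p = 0.0342 and 0.0334), whose numbers were not taken as paired with the healthy ones. HIF1A was also called in CLCS samples without healthy replicate 2 (adjusted p = 0.0420).

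**Figure D3:**
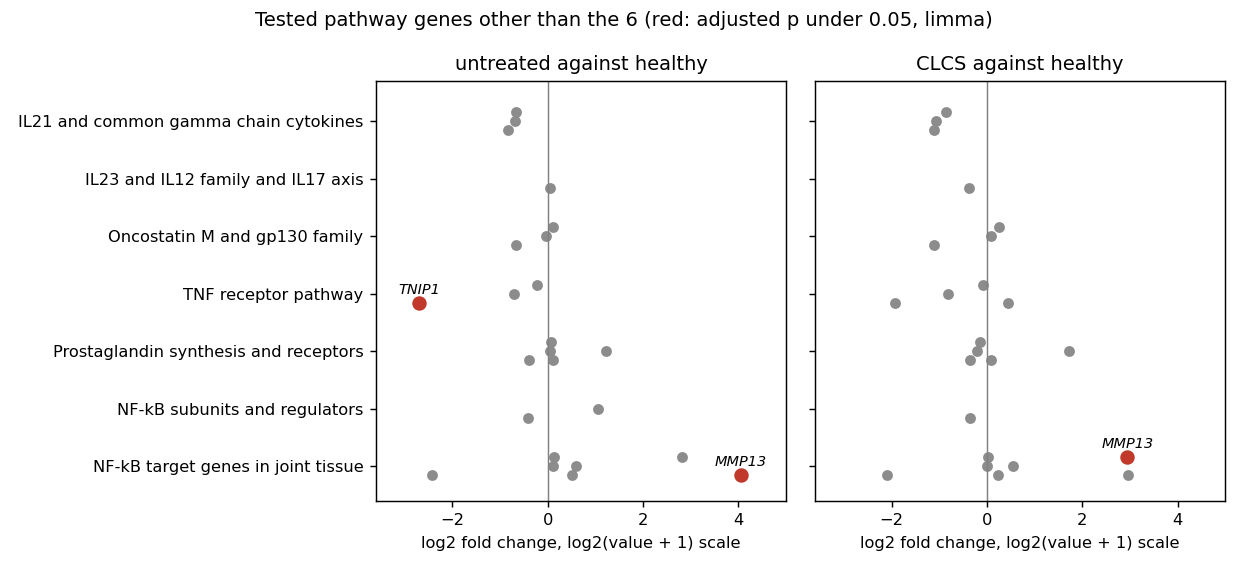
Log2 fold changes (horizontal axis, log2(value + 1) scale) of the tested pathway genes other than the 6 members, 1 row of points per list, for untreated (left) and CLCS (right) against healthy samples, with genes of an adjusted p under 0.05 in limma in red. MMP13 is called on both sides, at 4.04 and 2.95, and TNIP1 on the left at -2.70.

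Some genes of cells other than chondrocytes also differed between the groups, and their part in the results for the members was not tested. In bulk tissue, fewer cells of a type and less RNA per cell cannot be told apart. For the T lymphocyte list, of which 7 of 17 genes were analysed, the summed level was 129 to 478 normalised reads in healthy samples, 42.6 to 222 in untreated and 95.5 to 157 in CLCS ones, and 0 of its 4 tested genes were called. In the healthy libraries, where IL21 was also read most, CD28 had 29 to 411, CD5 36 to 62 and CD4 22 to 45 reads. Their log2 fold changes were -1.05, -0.74 and -1.15 in untreated and -0.999, -0.89 and -0.79 in CLCS samples, none of them called. CD40LG, also tested, was lower in untreated samples (log2 fold change -1.42) but not in CLCS samples (0.15), and was called in neither. The group means of LCK, which was not tested, were close, between 1.78 and 1.86 normalised reads. CD2 had 2 reads in all 9 libraries, too few to tell groups apart. Healthy replicate 1 had the highest level both of this list and of IL21. For the macrophage list, of which 12 of 15 genes were analysed, the sums were 58.9 to 67.8 in healthy samples, 69.0 to 279 in untreated and 94.6 to 109 in CLCS ones. TYROBP, a signalling adaptor of myeloid cells, rose in CLCS samples (log2 fold change 1.82, adjusted p = 0.0188) and had 166 reads in untreated replicate 3. CSF1R had 2 to 7 reads in the healthy, 13 to 18 in the untreated and 9 to 13 in the CLCS libraries. Its log2 fold change was 1.53 in untreated samples (adjusted p = 0.135). In all defects together it was 1.43, which was called (adjusted p = 0.0398). In untreated and CLCS samples ITGAM had 0.11 and 0.20, AIF1 -0.44 and -0.58 and CD68 0.58 and -0.14, none of them called. C1QA was at 0 in all healthy libraries and had 0 to 12 reads in the untreated and 0 to 3 in the CLCS ones, and CD163 and CD86 had 1 read each in all 9 libraries.

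The summed levels of the fibroblast and bone lists were higher in the defects. Fibroblast list sums were 571 to 893 in healthy samples, 1795 to 5057 in untreated and 2483 to 4091 in CLCS ones, and 3 of its members, the type I collagen genes COL1A1 and COL1A2 and the matrix gene POSTN, rose in both kinds of defect. The other fibroblast markers tested were not called. Of these, COL3A1 had a log2 fold change of 0.58 in untreated and 1.25 in CLCS samples, with means of 306, 843 and 902 in healthy, untreated and CLCS samples. PDGFRA (-0.12 in untreated and -0.67 in CLCS samples) and COL5A2 (0.06 and -0.16) lay near or below 0, so the higher sums rest on part of the list. Bone list sums were 308 to 914 in healthy samples, 985 to 2983 in untreated and 1864 to 2428 in CLCS ones. IBSP, bone sialoprotein, was called in CLCS samples (log2 fold change 2.46, adjusted p = 0.0277 in limma). In untreated samples its log2 fold change was 2.24, which was not called (adjusted p = 0.125). Its means in untreated and CLCS samples were close, at 1609 and 1598 normalised reads. B lymphocyte list sums were 121 to 182 in untreated, 116 to 148 in CLCS and 139 to 150 in healthy samples. Neutrophil list sums stayed at or below 9.84 and endothelial list sums at or below 19.6 normalised reads in every library.

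**Figure D4:**
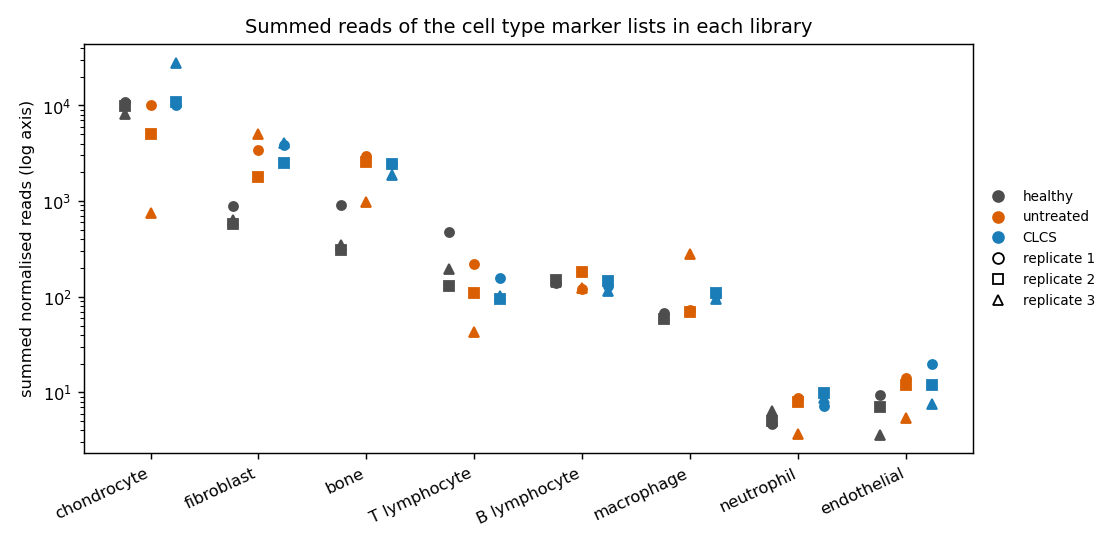
Summed normalised reads (vertical axis, logarithmic) of the markers of 8 cell types in the 9 libraries, coloured by group, with replicates 1 to 3 as circles, squares and triangles. Fibroblast and bone sums are higher in all defect libraries than in healthy ones, and untreated replicate 3 has the lowest chondrocyte sum (760) and the highest macrophage sum (279).

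The genes whose pattern over the 9 libraries was most like that of a member were sought among the 3812 genes kept by the filter, as a description. The libraries share their groups and depths, and the correlations carry no test. For IL21 the Pearson correlation of log2(value + 1) was highest with ENSOCUG00000015975 (0.94), CHD2 (0.94) and ENSOCUG00000013333 (0.92). For IL23A it was highest with RHBDD3 (0.96), for OSMR with ENSOCUG00000024970 (0.94), followed by CSPG5 and ZBTB32 (both 0.92), and for TNFRSF1A with PTDSS1 (0.96). For PTGES it was highest with CNOT3 (0.97), and for NFKB1 with STIP1 (0.93). No member was among the 3 genes most like another member, where IL21 and PTGES were outside the genes searched. Between the members themselves it lay between -0.84 for IL21 with IL23A and 0.71 for IL23A with TNFRSF1A.

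The strand setting of the count is not given in the sources used here, so reads of neighbouring or overlapping genes may not be separated. Which genes lie beside the members was read from RefSeq's table for mOryCun1.1, another build than that of the files. OSMR overlaps RICTOR, a subunit of mTOR complex 2, which had 0 to 5 reads per library and a log2 fold change of 0.15 (adjusted p = 0.912, SE 0.43) in untreated samples without the filter. TNFRSF1A lies within 1000 bases of PLEKHG6, which had 36, 12 and 36 reads in healthy and 3 to 16 in defect libraries, the direction opposite to TNFRSF1A, with a log2 fold change of -1.12 (adjusted p = 0.311, SE 0.49) in untreated and -1.89 (adjusted p = 0.0782, SE 0.46) in CLCS samples. PAN2, a deadenylase subunit 4865 bases from IL23A, had 22, 23 and 25 reads in healthy and 32 to 61 in defect libraries. The direction was that of IL23A, with a log2 fold change of 1.003 (adjusted p = 0.124, SE 0.28) in untreated samples. STAT2, on the other side of IL23A at 1122 bases, was not analysed. PRRX2, 11103 bases from PTGES, had 12 of its 15 healthy reads in healthy replicate 2, the library that also held most PTGES reads. A pseudogene lies within NFKB1, and IL21, IL23A and PTGES have no neighbour within 1000 bases.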

How the data were processed

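The 9 libraries, 3 per group, were grouped by the sample titles. As deposited, the tables give a signal for each gene. To make it, the authors aligned polyA libraries with TopHat and Bowtie against OryCun2.0, discarded reads with several alignments, obtained gene counts from eXpress and normalised them by DESeq2 size factors. Tool versions, annotation release and strand setting are not given in the sources used here. Dividing a column by its lowest positive value returned whole reads for 100% of values (tolerance 0.001 reads). The healthy columns are identical in both tables and were used once. All per-sample columns were used (0 left out).

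Groups were compared with limma 3.58.1 in R 4.3.3 on log2(value + 1), using genes kept by filterByExpr of edgeR 4.0.16 on the recovered reads and Benjamini-Hochberg adjustment over all of them, with a call at an adjusted p under 0.05. Members outside the filter were fitted without it and given an exact two-sided permutation test of the means (scipy 1.17.1), which cannot go under 0.1 for 3 against 3. edgeR and DESeq2 1.42.0 on the recovered reads, pseudocounts of 0.5 and 4, other filters and scalings, a replicate block and leaving out each library were alternatives, and those that combine a missing filter with another choice were added after the data were seen. The fits were tested on simulated data. The members and lists were chosen with earlier results of these data known. Genes were named by a rule: the members, 20 direct partners, called genes or the 3 smallest p-values of each pathway list, neighbours, the 3 most similar genes and the cell type markers. The text gives a part of these.

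Equal replicate numbers were checked as pairs by the Pearson correlation, across 3812 genes, of deviations from the group mean. It was 0.28, 0.14 and 0.19 for CLCS with healthy and 0.25, 0.33 and 0.30 for CLCS with untreated libraries, which were taken as paired, and 0.29, 0.13 and -0.04 for untreated with healthy libraries, which were not. The labels do not state a pairing. If equal numbers marked rabbits, pairing CLCS with both other groups would also pair untreated with healthy libraries. The correlations therefore do not establish which libraries share a rabbit.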

Additional observations from a re-analysis of the deposited data

How the results depend on the processing

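No member was called in any of the planned fits of 2 groups, with or without the filter or a library. Without the filter and together with other choices, the members called in untreated against healthy samples were 4 in edgeR, 2 in DESeq2 and 1 with all 9 libraries sharing the spread, and in CLCS against healthy samples 3 in edgeR and 1 in DESeq2. For all defects the members called were 1 without the filter (also with the block), 1 with a mean of at least 10 reads and 1 in DESeq2. Without the filter 6 were called in edgeR and 3 in DESeq2, and leaving out a library gave 0 to 1. Of all genes, limma without the filter called 1.19% and DESeq2 with it 11.1%. Without the filter edgeR called 4.54% and DESeq2 2.84% of all genes. The number of genes called in untreated samples moved from 89 to 20 without the filter (0 with the replicate block as well), 275 in DESeq2 (269 without the filter), 173 with all 9 libraries sharing the spread and 497 in edgeR without the filter, and to between 2 and 7 on leaving out any library. In CLCS samples it moved from 104 to 13 without the filter (19 with all 9 libraries, 0 with the block), 243 in DESeq2 (244 without the filter) and 400 in edgeR without the filter, and to between 0 and 81. For CLCS against untreated samples it was 29 in edgeR without the filter and 0 otherwise, and for all defects it moved from 251 to 425 in DESeq2 (422 without the filter), 675 in edgeR without the filter and between 96 and 235 on leaving out a library. Pathway genes called in untreated samples were 2, and 1 without the filter (0 with the block), 1 scaled without the most abundant gene, 4 in DESeq2, 4 with the block, 6 in edgeR and 5 in DESeq2 without the filter, 1 with all 9 libraries and no filter, and 1 on leaving out any library, which was MMP13. In CLCS samples they were 1, and 4 in DESeq2 with or without the filter, 3 with the block (0 without the filter), 5 in edgeR without the filter and 0 to 2 on leaving out a library. The replicate block changed no call of a member. Signs reversed only in CLCS against untreated samples: for TNFRSF1A (-0.073 when scaled without the most abundant gene, and between -0.33 and 0.33 on leaving out a library), NFKB1 (0.040 without untreated replicate 3, lowest -1.29) and OSMR (0.33 without CLCS replicate 1, lowest -0.88). Where counts fell on leaving out a library, fewer samples were fitted; the cause of the other shifts was not tested. Depth limits IL21 and PTGES, and NFKB1 against healthy samples, which are outside the filter for want of about 10 reads in 3 libraries, while IL23A, OSMR and TNFRSF1A passed it against healthy samples and were not called.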
